A study of Homo sapiens with 6 samples.

Results

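Cholesterol and fatty acid synthesis genes were described in RNA-seq read counts of A549, an established line of human lung adenocarcinoma cells. The 32 genes were taken by name from the 56303 rows of the deposited count table. They comprise 17 enzymes of the sterol pathway, 9 enzymes of fatty acid synthesis, elongation and desaturation, and 6 regulators or sterol sensors of the SREBP system. The control group holds 3 libraries of A549 cells that received a negative-control siRNA. The other group holds 3 libraries of A549 cells that received an siRNA against HNRNPD, whose product AUF1 binds AU-rich sequences in mRNA. Both groups share the cell line and a transfection, and the labels do not give the siRNA sequences or say that the libraries came from separate cultures. The p-values below may therefore reflect technical spread alone. Values in each library are given in the order of the labelled replicates 1, 2 and 3, a log2 change is HNRNPD siRNA minus control as fitted by edgeR, and adjusted p is by Benjamini-Hochberg.

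Cells make cholesterol from acetyl-CoA through mevalonate, isoprenoid and squalene intermediates, and fatty acids through malonyl-CoA. Transcription of both routes is driven by the sterol regulatory element-binding proteins, of which SREBF1 encodes the form tied more to fatty acid genes and SREBF2 the form tied more to sterol genes. The precursors sit in the endoplasmic reticulum with the escort protein SCAP. When sterols are plentiful the INSIG proteins hold SCAP there, and when sterols are scarce SCAP carries the precursor to the Golgi to be cleaved, so that its released domain enters the nucleus. SREBPs act at promoters together with NF-Y, which binds CCAAT boxes, and SP1, which binds GC boxes.

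The RefSeq promoter windows of 6 of the genes are shown because these genes include the largest falls in each role and both directions of change, and they were chosen after their values were seen. Each line gives the 250 bases before the start that RefSeq lists for the gene (GRCh38.p14), read 5′ to 3′ on the gene's own strand. These RefSeq starts differ from the outer ends of the gene spans in the count table, which are the positions given for genes below. The RefSeq start lies inside the span by 26 bases in SREBF2, 55 in STARD4, 100 in HMGCS1, 109 in SCD, 118 in FDPS and 11520 in ACLY, so part of each window, and all of that of ACLY, lies within the longest annotated span. Capitals mark matches, on either strand, to TCACNCCAC (the core of the sterol regulatory element), CCAAT and GGGCGG, and adjoining GGGCGG matches on the reverse strand overlap in SREBF2.
SREBF2 (chr22:41832855-41833104, plus strand): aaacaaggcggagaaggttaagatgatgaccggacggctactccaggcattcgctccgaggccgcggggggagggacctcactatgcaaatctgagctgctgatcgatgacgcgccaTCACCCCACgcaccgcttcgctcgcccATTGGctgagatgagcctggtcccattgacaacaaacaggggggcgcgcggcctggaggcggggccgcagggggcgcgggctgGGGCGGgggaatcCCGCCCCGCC
HMGCS1 (chr5:43313413-43313662, minus strand): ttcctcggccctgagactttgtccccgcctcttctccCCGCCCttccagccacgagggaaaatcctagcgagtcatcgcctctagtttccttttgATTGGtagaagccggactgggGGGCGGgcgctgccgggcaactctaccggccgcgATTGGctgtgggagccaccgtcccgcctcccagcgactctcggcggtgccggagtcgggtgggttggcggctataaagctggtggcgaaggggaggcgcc
SCD (chr10:100346983-100347232, plus strand): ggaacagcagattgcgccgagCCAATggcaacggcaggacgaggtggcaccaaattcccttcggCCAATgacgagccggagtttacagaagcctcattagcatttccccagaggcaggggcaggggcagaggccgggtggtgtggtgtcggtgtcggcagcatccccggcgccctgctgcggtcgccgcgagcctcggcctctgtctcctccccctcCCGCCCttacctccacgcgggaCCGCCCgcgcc
ACLY (chr17:41919023-41919272, minus strand): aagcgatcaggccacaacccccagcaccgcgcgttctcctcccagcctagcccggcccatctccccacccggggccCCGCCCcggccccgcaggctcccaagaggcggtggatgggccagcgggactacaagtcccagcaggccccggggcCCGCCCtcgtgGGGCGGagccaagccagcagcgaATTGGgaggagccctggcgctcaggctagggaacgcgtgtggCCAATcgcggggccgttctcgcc
FDPS (chr1:155308616-155308865, plus strand): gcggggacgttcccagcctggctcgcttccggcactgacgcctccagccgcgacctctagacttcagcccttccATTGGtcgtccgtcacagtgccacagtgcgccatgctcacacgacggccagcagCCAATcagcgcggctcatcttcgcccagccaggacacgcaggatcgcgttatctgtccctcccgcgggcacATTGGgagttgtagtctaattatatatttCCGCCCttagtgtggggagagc
STARD4 (chr5:111512536-111512785, minus strand): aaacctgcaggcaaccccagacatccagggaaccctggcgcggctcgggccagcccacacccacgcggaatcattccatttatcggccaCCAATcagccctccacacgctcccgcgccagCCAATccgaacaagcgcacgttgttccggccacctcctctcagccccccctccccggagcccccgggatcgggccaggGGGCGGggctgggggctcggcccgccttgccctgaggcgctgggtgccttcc

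Of the 32 genes, 29 had a window, and the windows searched run from 250 bases before to 50 bases after the RefSeq start, with the first window listed taken for each gene. No window was listed for FDFT1, SQLE and FASN. SREBF2 alone of the 29 held TCACNCCAC, which starts 133 bases before the RefSeq start, while 1.15% of 27305 promoters held it. CCAAT was found in 19 of the 29 and in 35.7% of all promoters, and GGGCGG in 26 of the 29 and in 44.6% of all promoters. By role, CCAAT was in 12 of 15 sterol enzymes, 4 of 8 fatty acid enzymes and 3 of 6 regulators. FDPS and STARD4, which rose, carried 3 and 2 CCAAT matches, while PMVK, which also rose, carried 0. SCD, HMGCS1 and ACLY, which fell, carried 2 each, and SREBF2, which also fell, carried 1. FADS1, ELOVL6 and IDI1, which fell as well, carried 0 each, while NSDHL, MSMO1, MVD and EBP, which also fell, carried 5, 4, 3 and 3. Both directions held genes with and without a CCAAT match. A link between matches and direction was not tested. A match is a run of letters and not a measured binding site. The search took exact matches only, so a window without a match was not shown to lack a site.

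The libraries held 37151094 to 43005090 counts, and levels are given in CPM, counts per 1000000 counts. HNRNPD had 965, 943 and 942 CPM in the controls against 177, 163 and 168 CPM after HNRNPD siRNA, so the groups did not overlap and it was 5.62-fold lower (log2 change -2.49 ± 0.06 SE, adjusted p = 1.38e-15). The 7 markers of A549 epithelial cells summed to 10491 to 11338 CPM in the control libraries. In the HNRNPD siRNA libraries they summed to 6477 to 7672 CPM. Of the 7, 5 were called lower and 1 higher, beside 27.8% and 28.4% of all tested genes (edgeR, adjusted p under 0.05). Markers of leukocytes (5 genes), fibroblasts (4), endothelial cells (4) and adipocytes (3) summed to at most 8.03 CPM in any library, and ADIPOQ was at 0 in every library. The 10 interferon-stimulated genes (MX1, OAS1, OAS2, IFIT1, IFIT3, IFI44, IFI44L, RSAD2, STAT2 and IRF9) summed to 77.9 to 85.15 CPM in the control libraries and 2632.5 to 4389 CPM in the HNRNPD siRNA libraries, highest in replicate 3. The part of the interferon-stimulated genes and of the marker changes in the results below was not tested. In bulk RNA, fewer cells of a kind and less RNA per cell cannot be told apart.

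After HNRNPD siRNA the lipid synthesis genes were mostly lower. Of the 32 genes, all of which passed the filter on low counts, 22 fell, 3 rose and 7 were not called (edgeR, adjusted p under 0.05 over 20465 tested genes). Across all tested genes 27.8% were called lower, 28.4% higher and 56.1% either. In 21 of the 32 the HNRNPD siRNA libraries all lay below the control libraries, against 30.9% of tested genes, and in 3 all lay above, against 31.7%. The median log2 fold change was -0.33, beside 0.01 for all tested genes. A fall of at least 1.5-fold was called for 10 of the 32 and for 13.9% of tested genes. Leaving out 1 library at a time gave 19 to 22 genes called lower, with 19 without control replicate 1 or 3 or HNRNPD siRNA replicate 2.

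**Figure D1:**
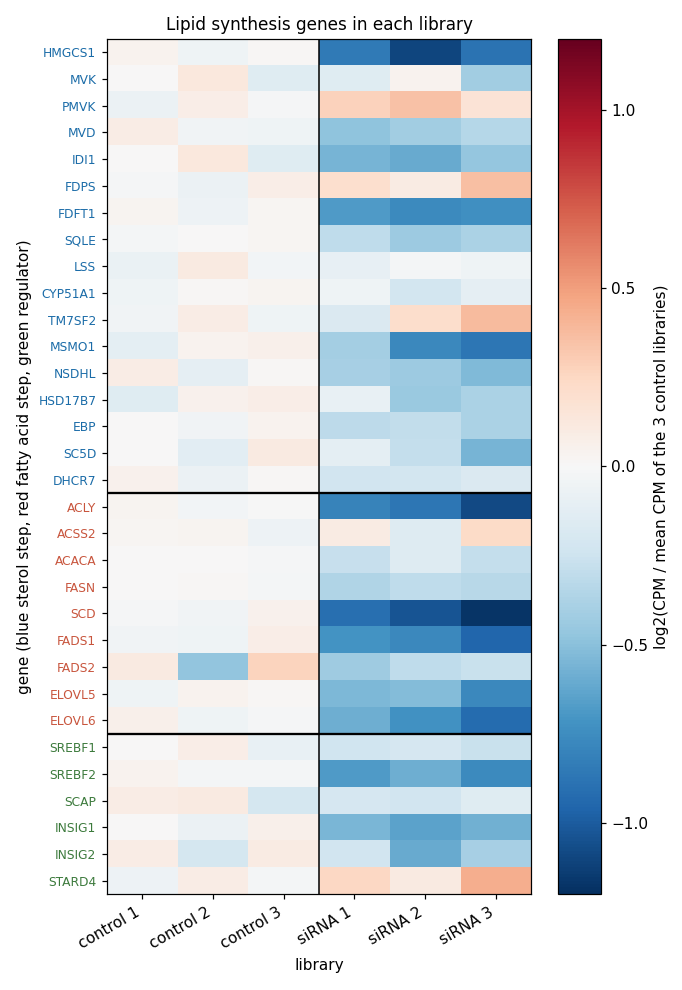
Level of each of the 32 genes (vertical axis) in each of the 6 libraries (horizontal axis), as log2 of CPM over the mean of the 3 control libraries, with blue below and red above that mean. The HNRNPD siRNA columns are blue for most genes, while PMVK, FDPS and STARD4 are red in all 3 of them, and FADS2 differs between control libraries.

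By role, 11 of 17 sterol enzymes, 7 of 9 fatty acid enzymes and 4 of 6 regulators fell, beside 27.8% of all tested genes. Median log2 fold changes were -0.31, -0.61 and -0.32. Falls of at least 1.5-fold were seen in 3 of 17, 5 of 9 and 2 of 6, beside 13.9% of all tested genes. The 3 of 17 sterol enzymes lie near that share. Summed over the fatty acid enzymes, the level was 2458, 2362 and 2546 CPM in the controls against 1524, 1485 and 1353 CPM after HNRNPD siRNA. The sterol enzymes summed to 771, 753 and 772 CPM against 571, 523 and 559.6 CPM. Sums give most weight to the most abundant genes, and both sums were lower in every HNRNPD siRNA library than in every control library. The roles were not tested against each other. HNRNPD siRNA replicate 3 had the highest interferon sum of the 3 HNRNPD siRNA libraries. It held the lowest HNRNPD siRNA value in 6 of 9 fatty acid enzymes, 6 of 17 sterol enzymes and 2 of 6 regulators. Replicate 2, with the lowest interferon sum of the 3, held it in 1 of 9, 7 of 17 and 4 of 6, respectively. A link between the interferon sum and these falls was not tested.

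**Figure D2:**
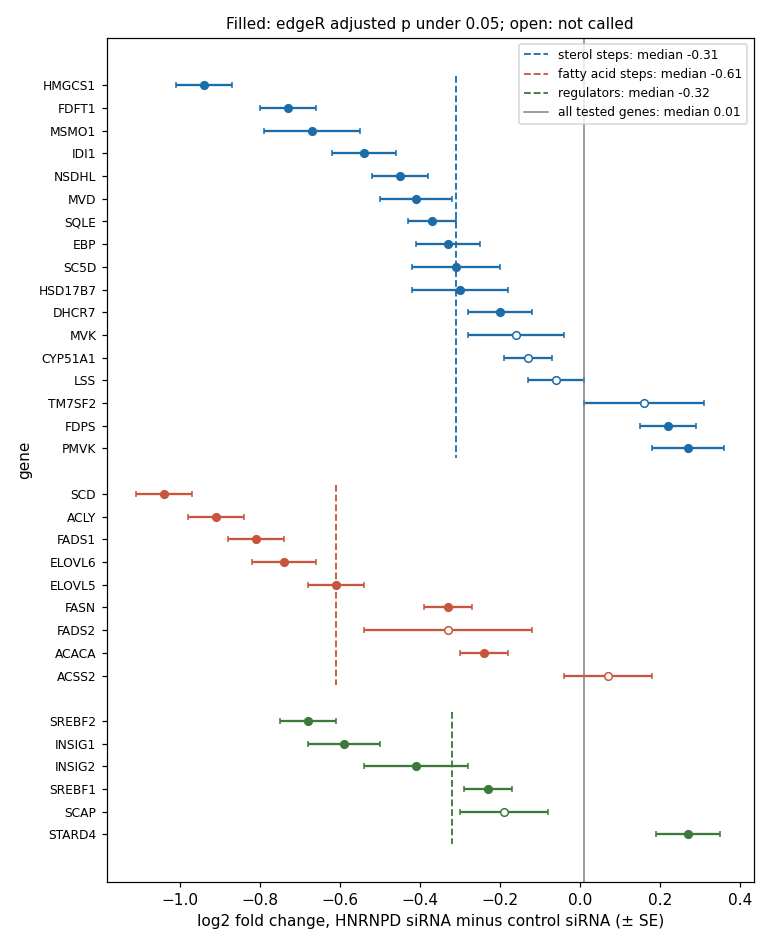
Log2 fold change (horizontal axis, HNRNPD siRNA minus control, ± SE from the edgeR fit) of each gene (vertical axis), grouped by role, with dashed lines at the role medians of -0.31, -0.61 and -0.32 and a grey line at 0.01, the median of all tested genes. Filled points passed an adjusted p of 0.05 and open points did not.

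Among the regulators, both SREBP genes and both INSIG genes fell, SCAP was not called and STARD4 rose. SREBF2 (chromosome 22 from 41833079 to 41907308, GRCh38) had 49.4, 47.3 and 47.4 CPM in the controls against 30.01, 31.9 and 28.2 CPM after HNRNPD siRNA. The groups were well apart, and SREBF2 fell 1.60-fold (log2 change -0.68 ± 0.07 SE, adjusted p = 1.05e-07). SREBF1 had 122, 128 and 114 CPM in the controls against 103, 106 and 101 CPM after HNRNPD siRNA. The groups did not overlap, and SREBF1 fell 1.18-fold (log2 change -0.23 ± 0.06 SE, adjusted p = 0.0029). Per kilobase of gene length, SREBF1 stood 2.32, 2.55 and 2.26 times as high as SREBF2 in the controls against 3.23, 3.11 and 3.36 times after HNRNPD siRNA. This ratio was higher in every HNRNPD siRNA library than in every control library, by 0.44 on the log2 scale (two-sided exact permutation test, p = 0.1, the smallest that 3 libraries against 3 allow).

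INSIG1, which retains SCAP and is itself an SREBP target, had 12.8, 12.1 and 13.3 CPM in the controls against 8.66, 8.14 and 8.52 CPM after HNRNPD siRNA. It fell 1.51-fold with no overlap (log2 change -0.59 ± 0.09 SE, adjusted p = 3.16e-05). INSIG2, the other retention protein, had 8.47, 6.89 and 8.56 CPM in the controls against 6.79, 5.25 and 6.04 CPM after HNRNPD siRNA. Its groups came close, at 6.89 CPM in the lowest control and 6.79 CPM in the highest HNRNPD siRNA library, and it fell 1.32-fold (log2 change -0.41 ± 0.13 SE, adjusted p = 0.011). The INSIG2 call was lost with some single libraries removed: leaving out library control 1, control 3 or siRNA 2 gave an adjusted p of 0.0501, 0.0504 or 0.0657, respectively. The ratio of INSIG1 to INSIG2 per kilobase was 1.63, 1.90 and 1.68 in the controls against 1.38, 1.68 and 1.52 after HNRNPD siRNA, which overlap (two-sided exact permutation test, p = 0.3).

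SCAP had 10.7, 10.9 and 8.72 CPM in the controls against 8.79, 8.61 and 9.12 CPM after HNRNPD siRNA. Control replicate 3 lay among the HNRNPD siRNA values, and SCAP was not called (log2 change -0.19 ± 0.11 SE, adjusted p = 0.135). SCAP did pass with 1 library removed: leaving out library control 3 gave an adjusted p of 0.0351. STARD4, a cytosolic sterol carrier, went the other way with 23.8, 26.4 and 24.4 CPM in the controls against 29.4, 26.9 and 33.7 CPM after HNRNPD siRNA. It rose 1.21-fold without overlap (log2 change 0.27 ± 0.08 SE, adjusted p = 0.01). That call was lost with some single libraries removed: leaving out library control 1, control 3 or siRNA 3 gave an adjusted p of 0.0618, 0.0526 or 0.0549, respectively.

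**Figure D3:**
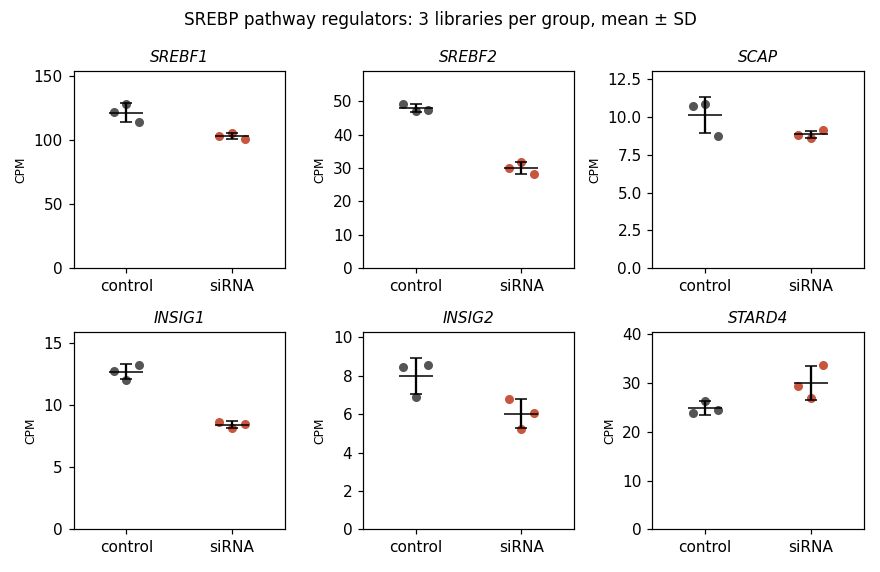
Level in CPM (vertical axis, starting at 0) of the 6 regulators in the 3 control and 3 HNRNPD siRNA libraries, as points with the mean and SD. SREBF2 and INSIG1 show wide gaps between the groups, SREBF1 and INSIG2 narrower ones, SCAP an overlap, and STARD4 a rise.

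The sterol pathway opens with mevalonate synthesis. HMGCS1 (chromosome 5 from 43289395 to 43313512), which joins acetoacetyl-CoA and acetyl-CoA, had 308, 289 and 302 CPM in the controls against 167, 139.8 and 162 CPM after HNRNPD siRNA. Each HNRNPD siRNA library held far less than each control library, and HMGCS1 fell 1.92-fold (log2 change -0.94 ± 0.07 SE, adjusted p = 1.15e-09), the largest fall of the 17 enzymes. An antisense gene covers 0.15 of its exonic length. Of the kinases that phosphorylate mevalonate next, none was called lower. MVK, mevalonate kinase, was at 10.5 and 9.43 CPM in the group means and was not called (log2 change -0.16 ± 0.12 SE, adjusted p = 0.259). PMVK, phosphomevalonate kinase, rose from 10.5 ± 0.542 CPM in controls to 12.7 ± 0.802 CPM (SD, n = 3), with an adjusted p of 0.0207 and a log2 fold change of 0.27. The PMVK call was lost with some single libraries removed: leaving out library control 1, control 3, siRNA 1 or siRNA 2 gave an adjusted p of 0.0917, 0.0743, 0.0533 or 0.0895, respectively. On all libraries with no filter on low counts, its adjusted p was 0.0521. MVD, which decarboxylates the product to isopentenyl diphosphate, fell 1.33-fold from 13.4 ± 0.725 CPM in controls to 10.04 ± 0.515 CPM (log2 change -0.41 ± 0.09 SE, adjusted p = 0.000913).

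Of the isoprenoid steps, the isomerase IDI1 fell 1.45-fold, with 37.5, 40.9 and 33.95 CPM in the controls against 25.4, 24.6 and 27.2 CPM after HNRNPD siRNA (log2 change -0.54 ± 0.08 SE, adjusted p = 9.11e-06). FDPS, farnesyl diphosphate synthase, rose, with 57.6, 55.4 and 61.5 CPM in the controls against 66.9, 62.1 and 74.5 CPM after HNRNPD siRNA. The groups lay close without overlap, at log2 change 0.22 ± 0.07 SE, adjusted p = 0.0126. The FDPS call was lost with some single libraries removed: leaving out library control 1, control 2 or siRNA 3 gave an adjusted p of 0.057, 0.0863 or 0.0511, respectively. Antisense genes cover 0.186 of the exonic length of FDPS and 0.179 of that of IDI1. FDFT1 (chromosome 8 from 11795573 to 11839309), squalene synthase and the entry to sterols, fell 1.65-fold, with 48.2, 45.02 and 47.9 CPM in the controls against 29.4, 27.6 and 28.2 CPM after HNRNPD siRNA. These groups were tight and far apart (log2 change -0.73 ± 0.07 SE, adjusted p = 2.91e-08). SQLE, the squalene epoxidase and a rate-limiting oxygenation, fell 1.30-fold from 68.2 ± 1.09 CPM in controls to 52.6 ± 2.30 CPM (log2 change -0.37 ± 0.06 SE, adjusted p = 3.84e-05). LSS, which closes the rings to lanosterol, was at 30.2 and 29.01 CPM in the group means and was not called (log2 fold change -0.06, adjusted p = 0.5).

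Of the 8 enzymes from CYP51A1 to DHCR7 that turn lanosterol into cholesterol, 6 fell and none rose. Across all tested genes, 27.8% were called lower and 28.4% higher. MSMO1, the C4 methyl oxidase (chromosome 4 from 165327623 to 165343160), had 10.7, 11.9 and 12.1 CPM in the controls against 8.69, 6.73 and 6.32 CPM after HNRNPD siRNA. It fell 1.59-fold without overlap (log2 change -0.67 ± 0.12 SE, adjusted p = 9.29e-05). NSDHL, which acts after it in C4 demethylation, fell 1.37-fold from 36.1 ± 2.42 CPM in controls to 26.4 ± 1.28 CPM (log2 change -0.45 ± 0.07 SE, adjusted p = 3.45e-05). EBP, the sterol isomerase, fell 1.26-fold from 19.9 ± 0.565 CPM in controls to 15.8 ± 0.517 CPM (log2 change -0.33 ± 0.08 SE, adjusted p = 0.00137). Falls of 1.15-fold to 1.24-fold were called for HSD17B7 (the C4 keto reductase), SC5D (the C5 desaturase) and DHCR7 (the last reductase of one branch). Adjusted p was 0.0399, 0.0202 and 0.0275, and the groups overlapped in HSD17B7 and SC5D.

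These 3 calls were not stable. For HSD17B7, leaving out library control 2, control 3, siRNA 2 or siRNA 3 gave an adjusted p of 0.109, 0.125, 0.161 or 0.0649, respectively. On all libraries, DESeq2 gave 0.0508, and edgeR with a filter of at least 1 CPM in 3 libraries gave 0.0559. For SC5D, leaving out library control 1, control 3 or siRNA 3 gave an adjusted p of 0.0539, 0.0882 or 0.0676, respectively. For DHCR7, leaving out library control 1, control 3, siRNA 1 or siRNA 2 gave an adjusted p of 0.0916, 0.0652, 0.0535 or 0.0726, respectively. Scaling all libraries by their totals only gave 0.0595. CYP51A1, the lanosterol demethylase, was at 75.6 and 69.2 CPM in the group means, did not overlap between groups and was not called (adjusted p = 0.0935). CYP51A1 did pass with some single libraries removed: leaving out library siRNA 1 or siRNA 3 gave an adjusted p of 0.0395 or 0.0453, respectively. Other genes cover 0.822 of the exonic length of CYP51A1, so its counts are uncertain. TM7SF2, a C14 sterol reductase, was low at 4.05 and 4.52 CPM and was not called (log2 fold change 0.16, adjusted p = 0.387).

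The fatty acid enzymes included the largest fall of the 32. SCD (chromosome 10 from 100347124 to 100364834), the desaturase that makes monounsaturated fatty acids, had 706, 694 and 739 CPM in the controls against 380.5, 347 and 315 CPM after HNRNPD siRNA. No library of either group came near the other group, and SCD fell 2.05-fold (log2 change -1.04 ± 0.07 SE, adjusted p = 3.72e-10). ACLY (chromosome 17 from 41866908 to 41930542), which makes cytosolic acetyl-CoA from citrate for both routes, had 530.4, 506 and 516 CPM in the controls against 298, 284 and 245 CPM after HNRNPD siRNA. It fell 1.88-fold (log2 change -0.91 ± 0.07 SE, adjusted p = 2.58e-09), whereas ACSS2, which makes acetyl-CoA from acetate, was at 10.2 and 10.7 CPM and was not called (log2 fold change 0.07, adjusted p = 0.622). The sign for ACSS2 turned to -0.03 without HNRNPD siRNA replicate 3.

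Among the 9 fatty acid enzymes, ACACA, FASN, ELOVL6 and ELOVL5, which build and extend the chain, all fell. ACACA, acetyl-CoA carboxylase, had 154, 154 and 152 CPM in the controls against 126, 138 and 126 CPM after HNRNPD siRNA. It fell 1.18-fold (log2 change -0.24 ± 0.06 SE, adjusted p = 0.00186). FASN, fatty acid synthase, had 166, 167 and 162 CPM in the controls against 129, 133 and 131 CPM after HNRNPD siRNA. It fell 1.26-fold (log2 change -0.33 ± 0.06 SE, adjusted p = 5.13e-05), and for both genes the HNRNPD siRNA libraries lay below all controls. Elongation by ELOVL6, which extends palmitate, showed 50.8, 47.1 and 48.4 CPM in the controls against 32.5, 29.5 and 25.7 CPM after HNRNPD siRNA. ELOVL6 fell 1.67-fold (log2 change -0.74 ± 0.08 SE, adjusted p = 2.44e-07). ELOVL5, which extends polyunsaturated chains, had 94.4, 101 and 99.1 CPM in the controls against 67.5, 68.2 and 57.2 CPM after HNRNPD siRNA and fell 1.53-fold (log2 change -0.61 ± 0.07 SE, adjusted p = 5.58e-07).

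FADS1 and FADS2, the neighbouring delta-5 and delta-6 desaturase genes on chromosome 11, differed in their calls, and the difference between them was not tested. FADS1 (chromosome 11 from 61799625 to 61829318) had 566, 562 and 616 CPM in the controls against 355, 340.5 and 302 CPM after HNRNPD siRNA. It fell 1.75-fold without overlap (log2 change -0.81 ± 0.07 SE, adjusted p = 9.4e-09). FADS2 had 181, 121 and 203 CPM in the controls against 126, 136 and 140.0 CPM after HNRNPD siRNA. Control replicate 2 lay below all HNRNPD siRNA libraries while the other controls lay above them, and FADS2 was not called (log2 change -0.33 ± 0.21 SE, adjusted p = 0.254). It was called lower, at a log2 change of -0.53, with 1 library removed: leaving out library control 2 gave an adjusted p of 2.95e-05. Other genes cover 0.048 of the exonic length of FADS1 and 0.049 of that of FADS2.

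The enzymes with the highest levels per length were also those with the largest falls. In the control libraries, SCD stood at 133, ACLY at 99.2, HMGCS1 at 63.7 and FADS1 at 56.8 CPM per kilobase, against a median of 8.24 over the 32 genes. After HNRNPD siRNA the means of SCD, ACLY, HMGCS1 and FADS1 were 64.8, 52.8, 33.2 and 32.5 CPM per kilobase. Across the 32 genes, the log2 level per length in controls and the log2 fold change had a Pearson's r of -0.55 and a Spearman's rho of -0.47. Within the 17 sterol enzymes r was -0.36, within the 9 fatty acid enzymes -0.85, and within the 6 regulators -0.01. These are descriptions across genes that share the same libraries, and genes are not independent replicates. The control level enters both values of each correlation. The correlation over all tested genes is not given, so the pattern is not shown to be particular to these genes.

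**Figure D4:**
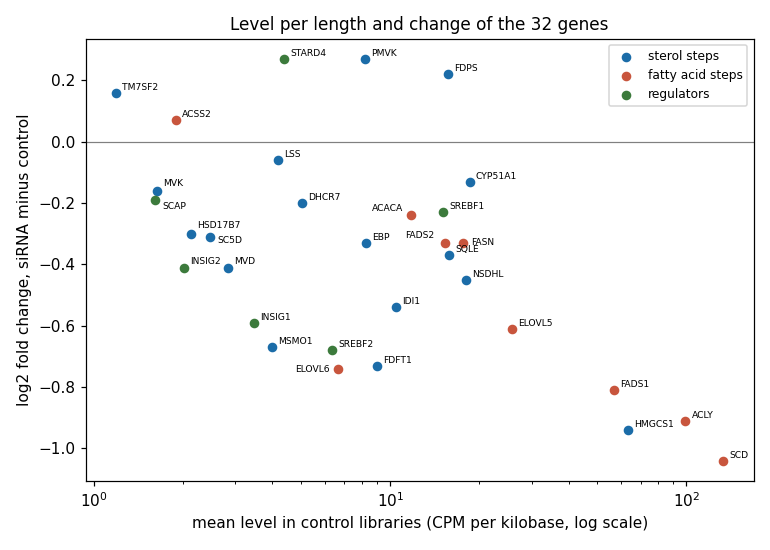
Log2 fold change (vertical axis, HNRNPD siRNA minus control) against the mean level per length in the control libraries (horizontal axis, CPM per kilobase, log scale) for the 32 genes, coloured by role. SCD, ACLY, HMGCS1 and FADS1 lie at the lower right, and PMVK, FDPS and STARD4 lie above the line at 0.

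Other enzymes of the same routes were read from lists beside the 32 genes, whose counts are set beside the 28.4% higher, 27.8% lower and 56.1% called either way of all tested genes. All 4 other sterol synthesis genes in the table fell, among them LBR and ACAT2. LBR, a nuclear envelope protein that carries the same C14 sterol reductase activity as TM7SF2, had 138, 137 and 143 CPM in the controls against 63.7, 58.3 and 53.3 CPM after HNRNPD siRNA and fell 2.39-fold (log2 change -1.26 ± 0.07 SE, adjusted p = 2.25e-11). ACAT2, the thiolase that makes acetoacetyl-CoA, fell 1.57-fold from 22.7 ± 1.04 CPM in controls to 14.5 ± 1.48 CPM and 0.523 of its exonic length lies under another gene. In the branches that use isoprenoids for other ends, 4 of 10 genes rose, 1 fell and 5 were not called, with a median log2 fold change of -0.02. The 50% called is near the 56.1% of all tested genes. PDSS2 and DHDDS, subunits of the enzymes that make the side chain of coenzyme Q and dolichol, rose 2.25-fold and 1.41-fold (adjusted p = 2.34e-05 and 9.88e-05). GGPS1, which makes geranylgeranyl diphosphate, was called higher at a log2 fold change of 0.18 (adjusted p = 0.0379). The GGPS1 call was lost in 7 of 15 alternatives. Leaving out library control 1, control 2, control 3, siRNA 1 or siRNA 2 gave an adjusted p of 0.119, 0.0973, 0.0998, 0.077 or 0.151, respectively. On all libraries, DESeq2 gave 0.0717, and edgeR with no filter on low counts gave 0.135. PGGT1B, a subunit of a prenyl transferase, was called lower at -0.26 (adjusted p = 0.0228). That call was lost with some single libraries removed: leaving out library control 1, control 3 or siRNA 3 gave an adjusted p of 0.0709, 0.0646 or 0.0908, respectively.

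Of 10 proteins that cleave SREBPs or turn over sterol sensors, 4 were higher and 5 lower, against 28.4% and 27.8% of all tested genes. The count of higher genes was 3 with any 1 library left out other than HNRNPD siRNA replicate 3, and 5 without that one. It includes RNF145, a ubiquitin ligase, at a log2 change of 0.14 (adjusted p = 0.0493), whose call was lost in 10 of 15 alternatives. Among the lower genes, PAQR3, which anchors SCAP at the Golgi, fell from 21.4 ± 1.25 CPM in controls to 10.8 ± 0.252 CPM (log2 change -0.98, adjusted p = 1.18e-08), with 0.455 of its exonic length shared with other genes. MBTPS2, the site-2 protease that makes the second cut in SREBPs, fell from 32.5 ± 0.537 CPM in controls to 20.1 ± 1.69 CPM (log2 change -0.69, adjusted p = 3.15e-07). RNF145, PAQR3 and MBTPS2 were chosen after their values were seen. ERLIN2 and ERLIN1, which form an endoplasmic reticulum complex, rose 2.71-fold and 1.68-fold (adjusted p = 1.74e-10 and 4.39e-09). ERLIN2 had 24.96, 26.1 and 24.6 CPM in the controls against 76.8, 69.4 and 59.1 CPM after HNRNPD siRNA. FBXW7, the ligase subunit that recognises nuclear SREBPs, rose 1.82-fold from 48.5 ± 0.216 CPM in controls to 88.3 ± 3.07 CPM (adjusted p = 6.78e-10).

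Of 19 genes of cholesterol uptake, transport and efflux, 6 rose and 10 fell, with a median log2 fold change of -0.31. The 31.6% higher is near the 28.4% of all tested genes, and the 52.6% lower stands beside 27.8%. The efflux pumps ABCA1 and ABCG1 fell. ABCA1 had 81.3, 86.4 and 88.2 CPM in the controls against 29.8, 30.4 and 31.9 CPM after HNRNPD siRNA, a 2.78-fold fall (log2 change -1.47 ± 0.06 SE, adjusted p = 1.37e-12). ABCG1 had 6.25, 8.75 and 5.96 CPM in the controls against 0.934, 1.12 and 1.70 CPM after HNRNPD siRNA, a 5.55-fold fall (log2 change -2.47 ± 0.21 SE, adjusted p = 4.3e-08). SCARB1, the receptor for high-density lipoprotein, fell 2.14-fold, and TMEM97, a sterol-responsive membrane protein, fell 2.26-fold (adjusted p = 7.52e-11 and 1.26e-07). OSBP, which moves cholesterol from the endoplasmic reticulum to the Golgi, rose 1.97-fold from 66.8 ± 2.35 CPM in controls to 132 ± 1.82 CPM (adjusted p = 9.36e-11).

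Of 6 oxysterol enzymes, 4 could be tested and 3 fell, or 75% lower beside 27.8% of all tested genes. SULT2B1, a cholesterol sulfotransferase, fell 4.89-fold from 15.1 ± 0.542 CPM in controls to 3.09 ± 0.569 CPM (adjusted p = 3.01e-11). CYP46A1, the cholesterol 24-hydroxylase, fell 2.97-fold from a low 2.42 ± 0.133 CPM in controls to 0.823 ± 0.431 CPM (adjusted p = 8.4e-05). HSD3B7 fell 1.61-fold and 0.646 of its exonic length lies under another gene. CH25H, the interferon-inducible cholesterol 25-hydroxylase, had 0 counts over the 3 control libraries and 8 counts over the 3 HNRNPD siRNA libraries and did not pass the filter. A count of 0 allows up to 3 counts in a library, or 0.07 to 0.0825 CPM, and this limit covers counting error only.

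Further fatty acid genes were lower in 12 of 26 and higher in 3, with a median log2 fold change of -0.31. The 57.7% called either way is near the 56.1% of all tested genes, and the 46.2% lower stands beside 27.8%. MLXIPL, which encodes the glucose-responsive lipogenic factor ChREBP, had 19.3, 21.3 and 20.6 CPM in the controls against 5.17, 4.89 and 4.67 CPM after HNRNPD siRNA and fell 4.15-fold (log2 change -2.05 ± 0.10 SE, adjusted p = 3.53e-12). ACSL1, an acyl-CoA synthetase, fell 2.96-fold, the desaturase family member FADS3 2.07-fold and the elongase ELOVL2 1.90-fold (adjusted p = 4.4e-11, 2.77e-08 and 1.23e-06). In triglyceride and phospholipid synthesis 12 of 19 genes fell and 1 rose, or 63.2% lower beside 27.8% of all tested genes. GPAT3, which adds the first acyl chain to glycerol 3-phosphate, had 181, 194 and 187 CPM in the controls against 49.5, 45.96 and 38.7 CPM after HNRNPD siRNA and fell 4.19-fold (log2 change -2.07 ± 0.08 SE, adjusted p = 8.57e-13). AGPAT5, LPIN2 and PCYT1A, of the following steps and of phosphatidylcholine synthesis, fell 2.07-fold, 2.11-fold and 1.47-fold.

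Genes of fatty acid oxidation, the opposite route, fell in 7 of 16 cases and rose in 2, with a median log2 fold change of -0.25. The 56.2% called either way is near the 56.1% of all tested genes, and the 43.8% lower stands beside 27.8%. CPT1A, which admits long chains to mitochondria and is inhibited by malonyl-CoA, had 64.9, 65.2 and 67.6 CPM in the controls against 25.6, 27.99 and 24.1 CPM after HNRNPD siRNA and fell 2.54-fold (log2 change -1.35 ± 0.07 SE, adjusted p = 1.32e-11). HADHA and ACAA2, enzymes of the oxidation spiral, fell 1.62-fold and 1.73-fold, and DECR1, needed for unsaturated chains, rose 1.86-fold (adjusted p = 2.75e-08, 8.89e-08 and 3.74e-09).

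**Figure D5:**
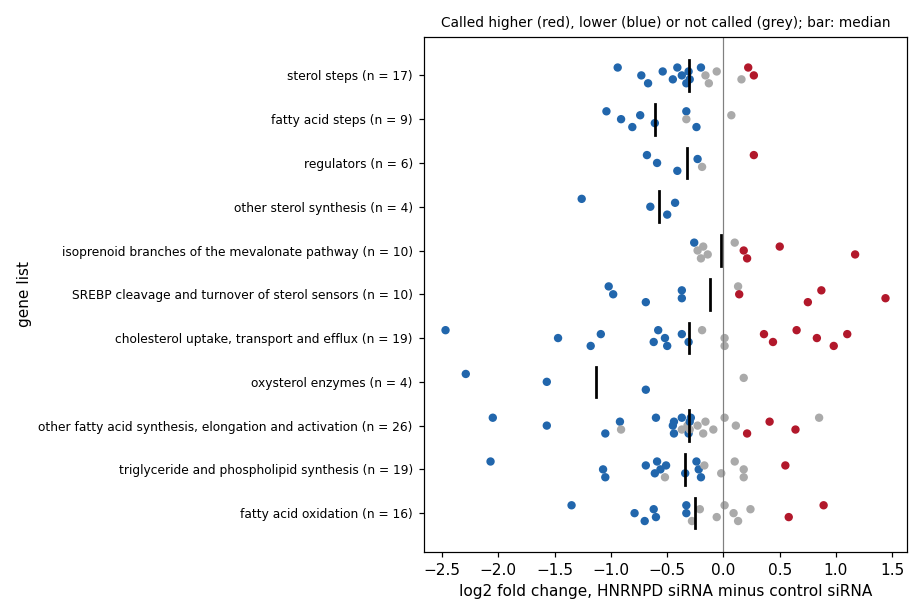
Log2 fold change (horizontal axis) of every tested gene in the 3 roles and in 8 lists of neighbouring lipid genes (vertical axis, with the number of genes), as points coloured by call, with a bar at the median. Points spread to both sides in the lists of SREBP turnover and cholesterol transport, while all 4 other sterol synthesis genes lie below 0.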

How the data were processed

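RNA-seq was measured in 6 A549 libraries, 3 per siRNA, grouped by their titles. The deposited table gives whole-number read counts per gene and gene length, per the file headers. Bowtie 0.12.2 appears in the submitters' processing notes, beside the builds GRCh38 and mm8 without their use. The counting program, the annotation and the use of strand were not given in the sources used here, so reads in bases shared between genes are of uncertain origin. Spans of 30 of the 32 genes equal those of GENCODE 29 (GRCh38).

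Counts were fitted with edgeR 4.0.16 in R 4.3.3 (quasi-likelihood, robust, TMM, filterByExpr, group as the only term, Benjamini-Hochberg adjustment over 20465 genes). CPM uses TMM-scaled totals, and fold sizes are fitted. On simulated data with 100 genes changed per size, 70% of 1.5-fold and 95% of 2-fold changes were recovered. That is a far smaller share of changed genes than the 56.1% called in these data. The recovery therefore checks the procedure and does not give the sensitivity of this comparison. Alternatives were DESeq2 1.42.0, limma-voom 3.58.1, other scalings and filters, counts divided by 2, no mitochondrial genes, a replicate block and each library left out. No replicate pair was closer than a chi-square per degree of freedom of 6.13.

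The genes and lists were chosen with earlier results of these data known. Named are the 32 genes, HNRNPD, CH25H, the interferon-stimulated genes, and in each list up to 4 called genes with the smallest p and those changed at least 2-fold. Some genes that this rule would name are not reported here: 6 listed genes stay in the list counts, medians and the plot of lists but are unnamed. In 2 lists, 1 gene each was not matched by name.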

Additional observations from a re-analysis of the deposited data

How the results depend on the processing

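Across 15 alternatives for each of the 32 genes, 447 of 480 values kept their direction and their side of the threshold, 28 lost the call, 4 gained one and 1 turned sign (ACSS2, -0.03 without HNRNPD siRNA replicate 3, with leave-one-out values up to 0.17). Of the 22 genes called lower, 18 were called in every alternative, and of the 3 called higher none was. With DESeq2, 21 genes were lower and 3 higher.

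With libraries left out in turn, the genes called higher numbered 0 to 2 of the 32, 0 to 1 of the sterol enzymes, 0 to 1 of the regulators, 2 to 4 of the isoprenoid branch genes (0 to 2 lower) and 1 to 2 of the triglyceride and phospholipid genes. Median log2 fold changes then ran from -0.40 to -0.34 for the 32 genes, 0.00 to 0.02 for all tested genes, -0.36 to -0.28 for cholesterol transport, -1.38 to -1.04 for oxysterol enzymes, -0.33 to -0.28 for further fatty acid genes and -0.29 to -0.17 for fatty acid oxidation. The median of all tested genes was 0.01 with DESeq2 and with its size factors, 0.03 with library totals only and 0.07 with no filter. With no filter, 1 sterol enzyme and 2 isoprenoid branch genes were higher (2 also with DESeq2), and the medians of oxysterol enzymes and further fatty acid genes were -0.28 and -0.33. With at least 1 CPM in 3 libraries these medians were -1.55 and -0.28, and 4 oxidation genes and 2 triglyceride and phospholipid genes were higher. Library totals only and counts divided by 2 gave 2 triglyceride and phospholipid genes higher, and a median of -0.29 for further fatty acid genes. The cause of these shifts was not tested.

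With a replicate block, the 32 genes again had 22 lower and 3 higher, and all tested genes 5792 higher and 5737 lower, while SREBP cleavage and turnover genes went from 4 to 3 higher. Deviations of same-numbered libraries correlated at 0.026, 0.022 and 0.014, and HNRNPD siRNA replicate 3 correlated best with control replicate 2, so the numbers give no pairing. Under the block, the INSIG1 to INSIG2 and SREBF1 to SREBF2 ratios differed by -0.18 and 0.44 on the log2 scale. These equal the values without the block by arithmetic, so they do not check them.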
